A study of Homo sapiens with 134 samples.

Results

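Unirradiated HBEC3KT cells were compared between the 12 h and the 4 h collection of the same experiment, so that the values describe what changed in the cells over 8 h without any radiation dose. All arrays with a dose of 0 Gy at 4 h or 12 h were taken, and each 12 h sample was paired with the 4 h sample that carries the same radiation label and the same biological replicate. This gave 9 pairs, or 18 samples on 20 arrays, of the 116 samples and 134 arrays of the series. HBEC3KT (HEBC3KT in the paper) is a line of human bronchial epithelial cells immortalized with CDK4 and telomerase, and all samples come from that 1 line, grown without serum in keratinocyte medium with growth factor and pituitary supplement. The mock cells carry the radiation label of the exposure they accompanied (Fe, Si or x-ray, the last of which the paper describes as γ-rays), but received none, and no irradiated array entered the comparison. A run, meaning 1 radiation label in 1 biological replicate (08A, 08C, 09A, 09B or 09C), is the unit of replication, with 3 runs per label. The group at 4 h holds 9 samples of 1 array each, and the group at 12 h holds 9 samples on 11 arrays, since Fe 08A and Fe 08C have 2 arrays each at 12 h. Fe 08A counts below as a run with both times on 1 chip, although 1 of its 2 arrays at 12 h lies on another chip.

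Cells that divide in culture pass in order through G1, DNA synthesis, G2 and mitosis, and the genes of each phase are transcribed together, so that their level in a culture depends in part on how many cells are in that phase. The building of ribosomes, in which ribosomal RNA is made and folded in the nucleolus, follows growth factor signals and the transcription factor MYC. Cultured epithelial cells also react to fresh or spent medium, to handling and to density, through immediate early genes, nutrient-sensing factors and the circadian clock, a feedback loop in which the PER and CRY proteins repress the factors BMAL1 and CLOCK.

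RNA was measured on Illumina HumanWG-6 V2 bead arrays, and all levels below are log2 signals after background correction and quantile normalization. The raw median signal per sample ran from 51.5 to 101.6 at 4 h (median 63.1) and from 45.8 to 92.9 at 12 h (median 61.7). It was higher at 12 h in 3 of 9 runs, with a mean log2 difference of -0.10 ± 0.18 (SD, n = 9) and a two-sided exact sign permutation p of 0.117, and the number of arrays limits the precision. Samples of the same run deviated together from their group means (correlation across probes 0.21 to 0.82), and 8 of 9 samples at 4 h correlated best with the 12 h sample of their own run. Of the 9 tested basal epithelial markers KRT5 lay at 13.19 and 13.23 at 4 h and 12 h, KRT14 at 12.65 and 12.51 and S100A2 at 14.23 and 14.36, near the top of the scale. The median level of the 9 was 12.27, and the lowest of them lay at 6.61, near the filter. The 16 tested markers of ciliated, secretory, fibroblast, endothelial and leukocyte cells included none that passed the test. Their means lay between 6.22 and 6.73 at both times, close to the filter at 6.23, except CD14, which lay at 8.36 at 4 h and 7.96 at 12 h.

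Between 4 h and 12 h, 2287 of 24350 tested probes changed at an adjusted p under 0.05 (limma with the run as a block, Benjamini-Hochberg), which is 9.39%. Of these, 1181 were higher and 1106 lower at 12 h. With the probe of highest signal standing for each gene, 993 of 14121 genes were higher (7.03%) and 892 lower (6.32%). The changes were mostly small. Above 1.3-fold, 355 of the called genes were higher and 291 lower, and above 2-fold 4 were higher and 7 lower. The 9 values at 4 h and the 9 values at 12 h did not overlap for 25 genes (0.177% of all tested), 20 of them higher and 5 lower. With arrays scaled only to a common median in place of quantile normalization, 2 probes were higher and 22 lower, so that the share of higher calls fell from 51.6% to 8.33%. Under that scaling the median difference of all probes was -0.02, against 0.00 with quantile normalization, and none of the called probes changed sign.

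The run x-ray 09C stood apart from the others. Across probes, which are not independent replicates, its differences correlated with those of the other 8 runs at a median Spearman coefficient of 0.02 (-0.05 to 0.09), while the other 8 correlated among themselves at a median of 0.25 (0.07 to 0.48). Without it, 1275 genes were higher (9.03%) and 1187 lower (8.41%), of which 927 and 819 were also called with all 9 runs. It stays in all values below unless stated. Of the named genes called with all runs, H2BC7, DUSP5 and PHLDA1 lost their call without it (adjusted p = 0.075, 0.0519 and 0.0567 in limma).

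**Figure D1:**
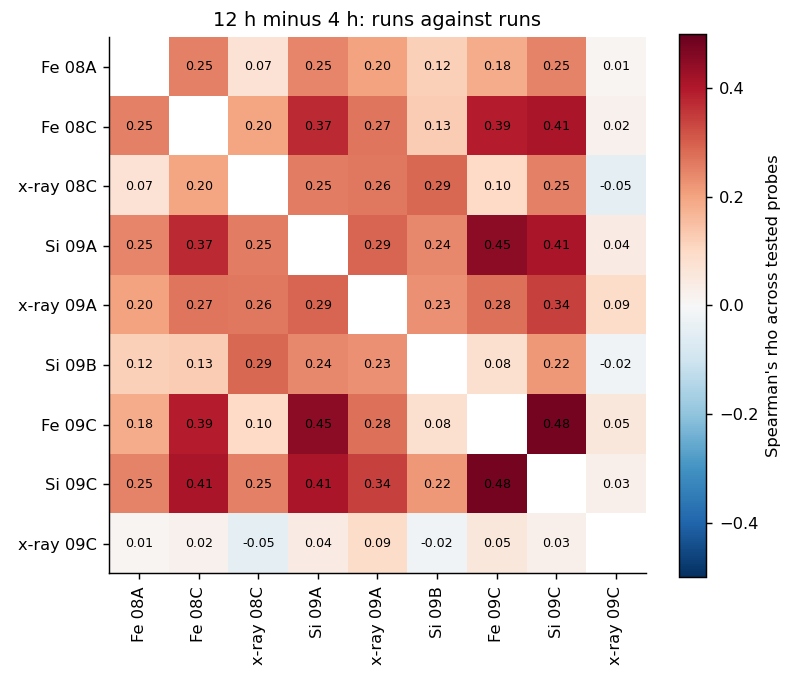
Spearman's rho across the tested probes between the 12 h minus 4 h differences of each pair of runs, with each coefficient printed in its square (red above 0, blue below 0, diagonal left blank). The last row and column, x-ray 09C, lie between -0.05 and 0.09, and the other 8 runs between 0.07 and 0.48.

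Genes of G2 and mitosis were higher at 12 h. All 35 tested members had a positive mean difference, 29 passed the test as higher at 12 h and none as lower, against 7.03% and 6.32% of all genes, and the median member rose by 0.61 on the log2 scale, against 0.00 for all genes. In bulk RNA, more cells in G2 or mitosis and more RNA of these genes per cell cannot be told apart. HMMR, a protein of the mitotic spindle, ran from 7.24 to 10.80 at 4 h (median 9.87) and from 9.90 to 11.15 at 12 h (median 10.64). It was higher in 9 of 9 runs, by 1.00 ± 0.77 (SD, n = 9; adjusted p = 0.00739), although the ranges overlap. CENPF, a kinetochore protein that builds up in G2, lay between 6.60 and 9.07 at 4 h (median 7.96) and between 8.45 and 9.37 at 12 h (median 8.95). Its increase of 0.97 ± 0.49 (adjusted p = 0.000783) had the smallest p of the group. The kinetochore motor CENPE rose by 0.59 ± 0.31 (adjusted p = 0.00118) and the spindle checkpoint kinase BUB1 by 0.76 ± 0.58 (adjusted p = 0.00715), both in 9 of 9 runs. The mitotic kinase CDK1 differed by 0.86 ± 0.84 (adjusted p = 0.0231), the DNA untangling enzyme TOP2A by 0.89 ± 0.81 (0.0164) and cyclin A2 (CCNA2) by 0.73 ± 0.61 (0.0114). The 6 members that did not pass were DLGAP5, CDC20, BIRC5, PLK1, PTTG1 and CCNB1, with mean differences from 0.22 to 0.54.

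The promoter windows of this group are shown because its members moved together. In the RefSeq windows of 300 bases (250 before and 50 after the start, GRCh38.p14), the letters TTTGAA, the core of the cell cycle gene homology region through which many G2 and mitosis genes are repressed in resting cells, were searched on both strands. They occurred in 20 of the 30 tested members with a window (66.7%) and in 17 of the 25 called members with one (68%), against 15.4% of 27305 windows in all. A match describes the letters only. The 3 called members with the smallest p whose match lies before the start are printed from 250 bases before the start up to it, 5′ to 3′, with the match or its reverse complement in capitals. HMMR lies at chr5:163460382-163460631 (plus strand) with 2 adjoining matches 28 and 22 bases before the start, BUB1B at chr15:40160819-40161068 (plus strand) with 1 match 23 bases before it, and TOP2A at chr17:40417897-40418146 (minus strand) with 2 matches 194 and 151 bases before it.
HMMR promoter: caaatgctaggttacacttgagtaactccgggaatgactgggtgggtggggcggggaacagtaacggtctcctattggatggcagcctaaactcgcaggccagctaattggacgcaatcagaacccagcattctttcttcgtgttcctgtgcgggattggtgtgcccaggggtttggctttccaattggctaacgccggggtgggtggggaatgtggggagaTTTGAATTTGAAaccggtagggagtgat
BUB1B promoter: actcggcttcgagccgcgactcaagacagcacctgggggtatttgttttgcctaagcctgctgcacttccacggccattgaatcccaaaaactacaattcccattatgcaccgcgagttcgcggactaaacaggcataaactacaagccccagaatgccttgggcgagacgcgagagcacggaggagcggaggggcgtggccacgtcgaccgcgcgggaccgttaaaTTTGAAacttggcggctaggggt
TOP2A promoter: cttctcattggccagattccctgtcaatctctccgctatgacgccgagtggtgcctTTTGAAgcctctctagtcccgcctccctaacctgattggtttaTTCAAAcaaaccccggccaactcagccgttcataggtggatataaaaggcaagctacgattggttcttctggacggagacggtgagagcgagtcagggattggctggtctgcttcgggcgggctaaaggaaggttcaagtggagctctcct

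The runs lay closer together in these genes at 12 h than at the other times. The mean level of the 35 members spread from 8.09 to 10.39 at 4 h (SD 0.65, n = 9) and from 9.85 to 10.41 at 12 h (SD 0.16), with SDs of 0.53 in the reference cells taken before irradiation (0 h), 0.48 at 1 h and 0.60 at 24 h. Fe 09C had the lowest level at 4 h, 8.09, and reached 9.85 at 12 h, so that its median member differed by 1.76. In x-ray 09C the level was the highest of all runs at 4 h, 10.39, and stood at 10.41 at 12 h, so that its median member differed by 0.03. The other 7 runs had medians from 0.20 (Fe 08A) to 0.95 (Fe 08C). The number of members called as higher was 31 without x-ray 09C and 28 without Fe 09C, but 14 without Si 09A, 15 without Si 09C and 16 without Fe 08C. It was 19 in the authors' value table, 7 in the 5 runs with both times on 1 chip, 4 in a fit with all mock and reference samples and 1 without the run as a block, and none after median scaling (22 at an unadjusted p under 0.05), with all 35 means still positive there and in the authors' table.

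**Figure D2:**
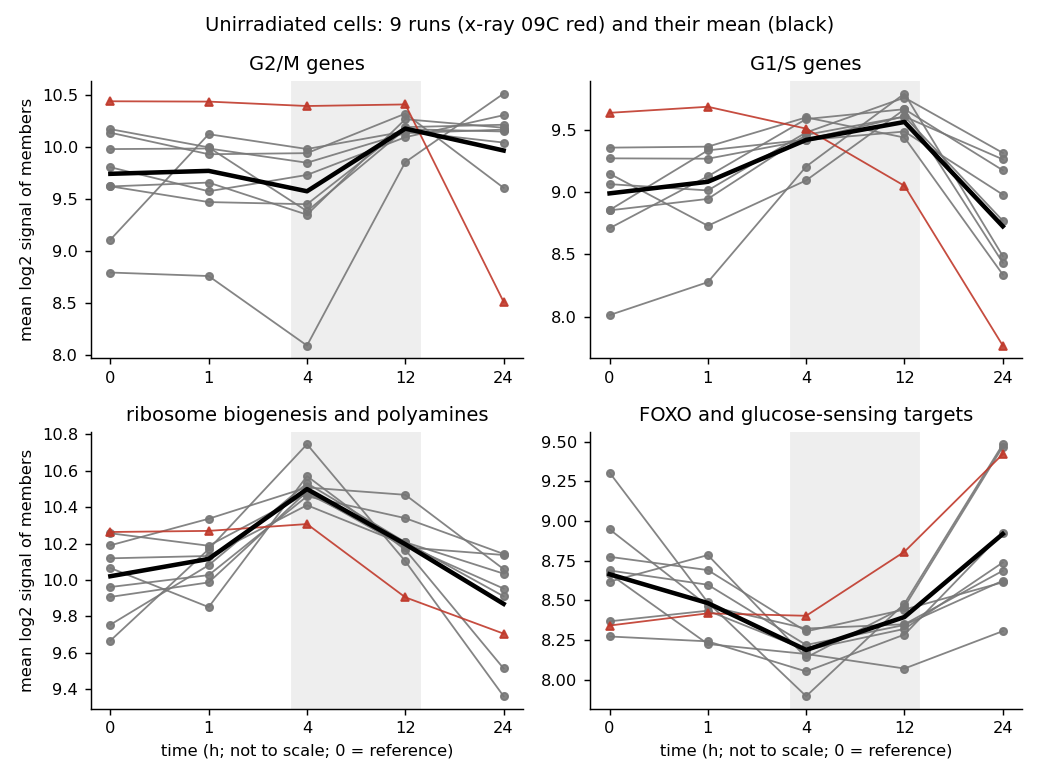
Mean log2 signal of the tested members of 4 gene lists in unirradiated cells at 0 (reference), 1, 4, 12 and 24 h (time axis not to scale), 1 line per run with x-ray 09C as red triangles and the mean of 9 runs in black. The 4 h to 12 h step is shaded, over which the mean of the G2/M genes went from 9.57 to 10.17 and that of ribosome biogenesis from 10.50 to 10.20.

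Genes of the G1/S step and of DNA replication changed less evenly. Of 33 tested, 6 were higher and 2 lower at 12 h, with a median difference of 0.17. The replication clamp loader subunit RFC4 ran from 9.81 to 10.78 at 4 h (median 10.36) and from 10.58 to 11.08 at 12 h (median 10.83), a rise of 0.48 ± 0.37 (adjusted p = 0.00888) in 8 of 9 runs. Thymidylate synthase (TYMS), which makes the DNA precursor dTMP, rose by 0.54 ± 0.45 (adjusted p = 0.0131), and the replication helicase factor CDC45 by 0.74 ± 0.76 (adjusted p = 0.0293). The phosphatase CDC25A, which activates cyclin-dependent kinases, fell by 0.54 (SD 0.32, adjusted p = 0.00229), and the histone mRNA binding protein SLBP fell by 0.34 (SD 0.20, adjusted p = 0.00423). None of the 6 MCM helicase subunits MCM2 to MCM7 passed the test. In x-ray 09C the median member was 0.47 lower at 12 h than at 4 h, while it ranged from -0.15 to 0.69 in the other runs, and without that run 14 members were higher and 2 lower. The count of higher members was 2 without x-ray 08C, without Si 09A or without Si 09C, and 3 without Fe 08C. Of 19 tested histone genes, H2BC7 alone passed, at 0.22 ± 0.21 (adjusted p = 0.0494). Its means of 6.41 at 4 h and 6.63 at 12 h lay near the filter at 6.23.

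Ribosome biogenesis genes were lower at 12 h. Of 27 tested, which include the polyamine enzymes AMD1, ODC1 and SRM, 16 were lower and none higher, and the median member fell by 0.34. Among all genes, 6.32% were lower and 7.03% higher. NIP7, needed for making the large ribosomal subunit, ran from 11.13 to 11.95 at 4 h (median 11.60) and from 10.24 to 11.29 at 12 h (median 10.98). It fell in 9 of 9 runs, by 0.63 (SD 0.22, adjusted p = 0.000213), with ranges that overlap. AMD1, which supplies the aminopropyl donor for polyamines, ran from 11.02 to 12.03 at 4 h (median 11.83) and from 10.45 to 11.42 at 12 h (median 11.35). It fell by 0.52 (SD 0.16, adjusted p = 0.000213), and its other probe by 0.59. The assembly factor RRS1 fell by 0.59 (SD 0.21, adjusted p = 0.000244), and the nucleolar protein LYAR fell by 0.49 (SD 0.24, adjusted p = 0.00111). Members of the RNA polymerase I machinery were also lower, among them the subunit POLR1B (-0.58 ± 0.36, adjusted p = 0.00301) and the initiation factor RRN3 (-0.30 ± 0.17, 0.00464). The nucleolar proteins NCL, FBL and NPM1 and the polyamine enzymes ODC1 and SRM did not pass the test, with differences from -0.16 to 0.10.

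Further nucleolar genes, none of them in the list, were among the 12 lower genes with the smallest p. Those 12 were taken only from genes that changed the same way in 9 of 9 runs, so that this feature was fixed by the choice. The nucleolar genes were picked from them by name, and the share of nucleolar genes among all genes was not counted. POLR1C, a subunit of RNA polymerases I and III, ran from 10.48 to 11.40 at 4 h (median 11.14) and from 10.09 to 10.92 at 12 h (median 10.65), and fell by 0.47 (SD 0.12, adjusted p = 0.000211). The nucleolar protein NIFK, a partner of Ki-67, fell by 0.57 (SD 0.18), PNO1, which assembles the small ribosomal subunit, fell by 0.70 (SD 0.24), and the nucleolar protein SURF6 fell by 0.42 (SD 0.09), each with an adjusted p of 0.000211 and in 9 of 9 runs. MYC itself ran from 12.10 to 12.80 at 4 h (median 12.56) and from 11.96 to 12.36 at 12 h (median 12.16), and fell by 0.39 (SD 0.15, adjusted p = 0.00087) in all 9 runs. The mean level of the 27 list members was higher at 4 h than at 0, 1, 12 and 24 h in 9 of 9 runs, and its means over the runs were 10.02, 10.12, 10.50, 10.20 and 9.87 in order of time. No test was made over these times. The count of lower members was 15 to 16 with any 1 run left out, 15 in the authors' value table and 10 in the runs on 1 chip. After median scaling all 27 means were negative, and none passed the test (19 at an unadjusted p under 0.05). The E-box CACGTG, a palindrome bound by MYC and by the clock factors, occurred in 7 of 22 list members with a promoter window (31.8%) and in 3 of 13 called members (23.1%), against 7.43% of all windows. In the G2/M list, which rose, it occurred in 5 of 30 tested members with a window (16.7%) and in 3 of 25 called members (12%). Of 62 cytosolic ribosomal protein genes, RPL28 alone passed, at -0.45 ± 0.44 (adjusted p = 0.0279), with a list median of -0.02 and 37 of 62 negative means. After median scaling that median was -0.15, with 57 of 62 negative. The RPL28 probe lay at 9.29 at 4 h and 8.84 at 12 h, far below the median level of the list, 14.19.

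**Figure D3:**
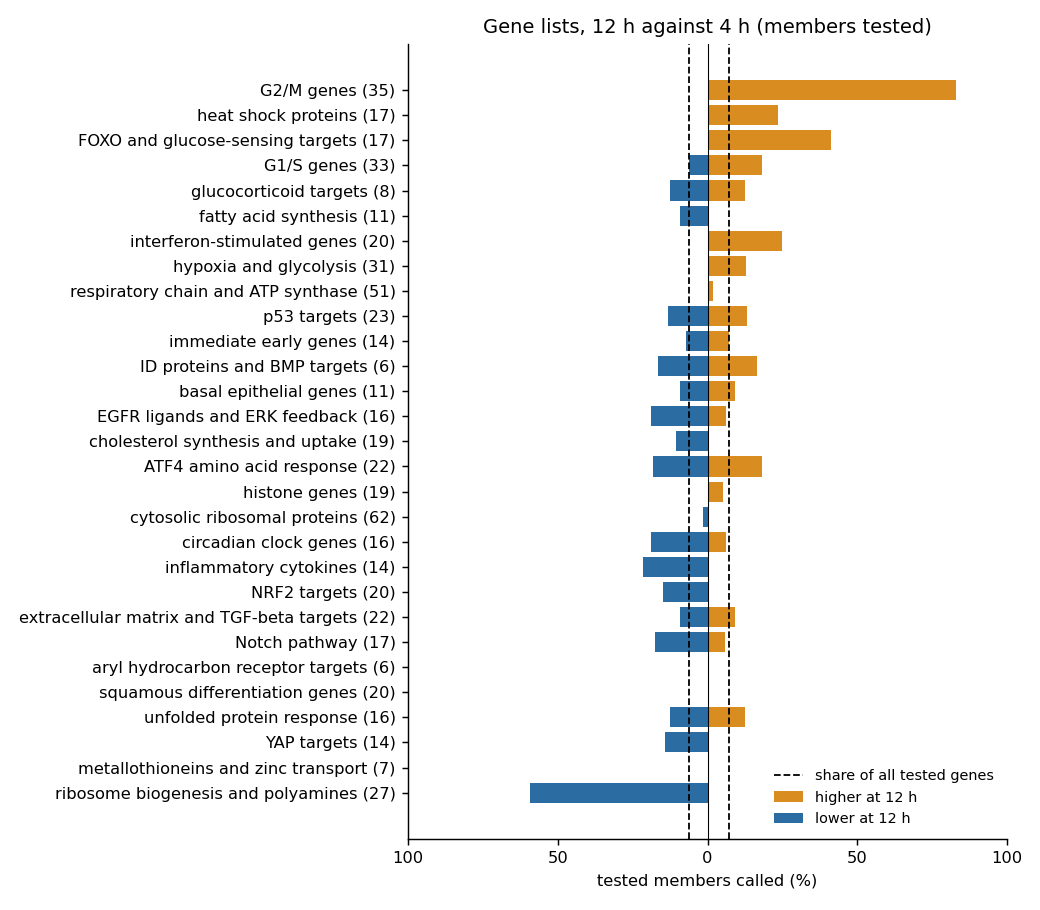
Share of the tested members of each gene list that were called higher (orange, to the right) or lower (blue, to the left) at 12 h, with the number tested in parentheses and the share of all tested genes as dashed lines (7.03% higher, 6.32% lower). Lists are ordered by their median difference, from the G2/M genes (29 of 35 higher) to ribosome biogenesis (16 of 27 lower).

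DDIT4 (REDD1), a stress-induced inhibitor of mTORC1, ran from 12.59 to 13.98 at 4 h (median 13.09) and from 13.67 to 14.31 at 12 h (median 13.80). It rose in 9 of 9 runs, by 0.77 ± 0.25 (adjusted p = 0.000211), and the highest value at each time belonged to x-ray 09C. Its mean went from 13.87 at 0 h and 13.35 at 1 h to 13.10 at 4 h, and back to 13.87 at 12 h and 14.10 at 24 h. Among all genes, 7.03% were higher and 6.32% lower. Of 17 tested targets of the FOXO factors or of glucose sensing, 7 were higher and none lower (median difference 0.17). These were the cell cycle inhibitor CDKN1B (0.35 ± 0.24, adjusted p = 0.00745), FOXO1 itself (0.47 ± 0.35, 0.00846), the repressor BCL6 (0.54 ± 0.42, 0.00905), YPEL3 (0.26 ± 0.16, 0.00953), the atypical cyclin CCNG2 (0.49 ± 0.42, 0.0155), the antiproliferative BTG1 (0.36 ± 0.30, 0.0173) and TXNIP, the inhibitor of thioredoxin and of glucose uptake (0.84 ± 0.81, 0.0218). The mean of the 17 members was lowest at 4 h among the 5 times in 7 of 9 runs. The count of higher members was 6 to 7 with any 1 run left out, 6 in the authors' value table and 2 in the runs on 1 chip. It was 1 in a fit with all mock and reference samples. No member was called without the run as a block or after median scaling (6 at an unadjusted p under 0.05). Without x-ray 09C 7 were higher and 1 lower, and the median was 0.11.

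The endoplasmic reticulum and amino acid responses did not move one way. Among all genes, 7.03% were higher and 6.32% lower. HERPUD1, a component of the machinery that removes misfolded proteins from the endoplasmic reticulum, ran from 7.68 to 10.39 at 4 h (median 8.41) and from 8.84 to 11.59 at 12 h (median 10.17). It rose in 9 of 9 runs by 1.52 ± 0.93 (adjusted p = 0.00173), 2.88-fold, with run differences from 0.43 to 3.27. Its mean had been 11.05 at 0 h and 10.32 at 1 h, so that the 4 h level, 8.64, was the lowest of the 5 times in 8 of 9 runs. Among the 16 tested members of the unfolded protein response, the cochaperone DNAJB9 was also higher (0.47 ± 0.42, adjusted p = 0.0205), whereas the chaperones HSP90B1 (-0.44 ± 0.35, 0.0109) and HYOU1 (-0.42 ± 0.45, 0.0402) were lower. HSPA5, the main chaperone of that compartment, differed by -0.76 with an adjusted p of 0.0518. Of 22 targets of ATF4, the factor induced when amino acids run short, 4 were higher (DDIT4, CTH, CHAC1 and DDIT3) and 4 lower. The second probe of CTH, at 0.07, was not called. The lower ones were the factor ATF5 (-0.52 ± 0.20, adjusted p = 0.000394), asparagine synthetase (ASNS, -0.80 ± 0.72, 0.0167), the folate enzyme ALDH1L2 and the serine pathway enzyme PSAT1. In x-ray 09C the median ATF4 target was 0.54 higher at 12 h, above the range of the other runs (-0.47 to 0.13), and ASNS was 0.80 higher. Without that run 3 targets were higher and 10 lower, and of the unfolded protein response 2 were higher and 7 lower, or 2 and 6 without Fe 09C. Left out singly, Si 09A gave 1 lower ATF4 target, and Fe 08C, x-ray 08C and Si 09C gave 2 each. The 2 lower unfolded protein response members became 1 without Fe 08A, x-ray 08C, Si 09A, x-ray 09A, Si 09B or Si 09C. The 4 higher ATF4 targets became 2 without Fe 08C, x-ray 09A or Si 09C, and the 2 higher unfolded protein response members 1 without x-ray 09A or Si 09C.

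Of 17 tested heat shock proteins and cochaperones, 4 were higher and none lower (median 0.18), against 7.03% and 6.32% of all genes. After median scaling the median was 0.03, with 10 positive means in place of 15. With quantile normalization the mean of the 17 was highest at 12 h among the 5 times in 9 of 9 runs. The inducible chaperone HSPA1A ran from 9.96 to 10.84 at 4 h (median 10.54) and from 10.06 to 11.91 at 12 h (median 11.12). It rose by 0.67 ± 0.40 (adjusted p = 0.00187) in 9 of 9 runs, and the near-identical copy HSPA1B, which its probe may share, differed by 0.20 (adjusted p = 0.272). HSP90AA1 rose by 0.51 ± 0.26 (adjusted p = 0.00129), but its other probe differed by -0.08 and was not called. The mitochondrial cochaperonin HSPE1 (0.33 ± 0.19, 0.00475) and the HSP90 cochaperone FKBP4 (0.38 ± 0.25, 0.00633) rose in 8 of 9 runs each.

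Of 16 tested circadian clock genes, 3 were lower (PER2, CRY2 and TEF) and 1 was higher (BMAL1), against 6.32% and 7.03% of all genes. The share of higher clock genes was near that of all genes. After median scaling 1 clock gene was lower and none higher. PER2, a repressor of the loop, ran from 8.50 to 9.75 at 4 h (median 9.05) and from 7.42 to 8.42 at 12 h (median 7.98), and the groups did not overlap. It fell in 9 of 9 runs by 1.06 (SD 0.51, adjusted p = 0.000594), or 2.08-fold. Its mean levels at 0, 1, 4, 12 and 24 h were 8.73, 9.50, 8.99, 7.93 and 9.59, and 12 h was the lowest time in 9 of 9 runs. CRY2, another repressor, ran from 7.52 to 7.98 at 4 h (median 7.70) and from 6.93 to 7.51 at 12 h (median 7.29), again with no overlap. It fell by 0.47 (SD 0.28, adjusted p = 0.00309), and the clock output factor TEF fell by 0.52 (SD 0.35, adjusted p = 0.0043). BMAL1, an activator of the loop, ran from 7.54 to 8.58 at 4 h (median 8.25) and from 8.42 to 8.93 at 12 h (median 8.70), a rise of 0.47 ± 0.44 (adjusted p = 0.0241) in 8 of 9 runs, and its second probe also passed, at 0.16. Without Si 09A or without Si 09C BMAL1 did not pass, and no other clock gene was higher. CRY1 (-0.22 ± 0.24, adjusted p = 0.0706), PER1 (0.11 ± 0.19, 0.353), NR1D1 (0.02 ± 0.09, 0.882), NR1D2 (-0.03 ± 0.20, 0.878) and DBP (0.09 ± 0.22, 0.506) did not pass, and PER1, NR1D1 and DBP lay near the filter. PER3 was not among the tested genes. In x-ray 09C the falls were the smallest of the 9 runs, -0.29 for PER2 and -0.01 for CRY2, and TEF was 0.24 higher there. Of the 8 glucocorticoid targets, the kinase SGK1 was lower (-0.51 ± 0.20, adjusted p = 0.00043, 9 of 9 runs) and the repressor KLF9 higher (0.68 ± 0.46, adjusted p = 0.00398, 9 of 9 runs). FKBP5 and TSC22D3 did not pass.

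**Figure D4:**
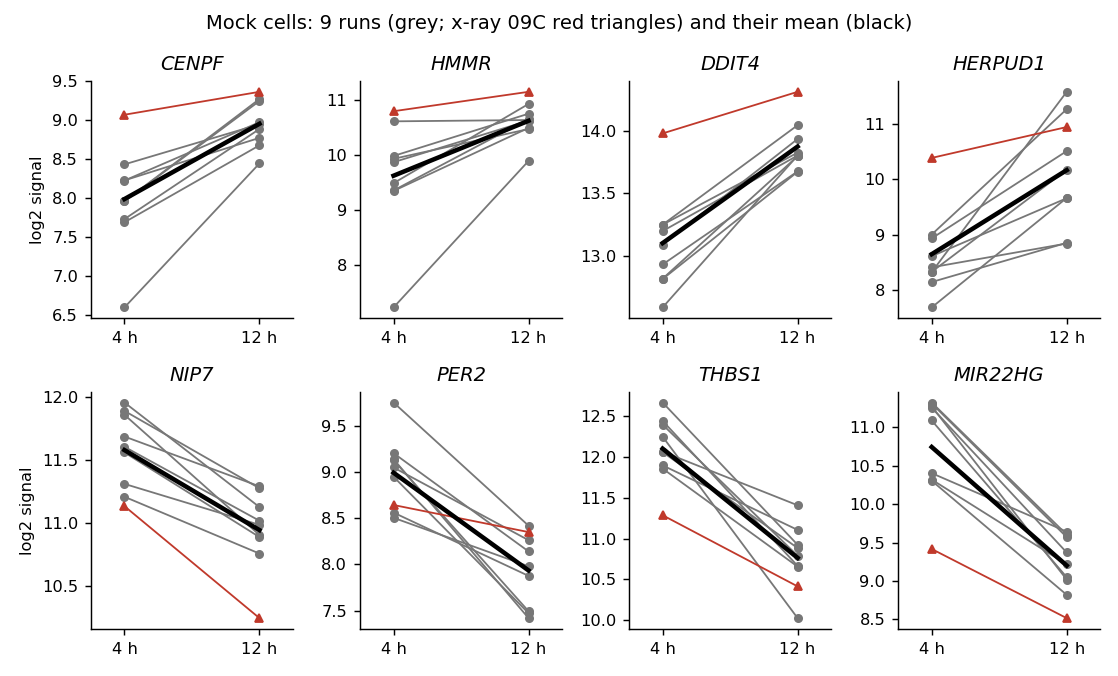
Log2 signal of 8 genes at 4 h and 12 h, 1 line per run (grey, x-ray 09C as red triangles) and the mean of 9 runs in black; each panel has its own scale, which does not start at 0. CENPF, HMMR, DDIT4 and HERPUD1 rose and NIP7, PER2, THBS1 and MIR22HG fell in all 9 runs.

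Secreted, TGF-beta related and inducible genes included falls above 2-fold. MIR22HG, the transcript that hosts the microRNA miR-22, ran from 9.42 to 11.32 at 4 h (median 11.09) and from 8.51 to 9.64 at 12 h (median 9.21). It fell by 1.54 (SD 0.52, adjusted p = 0.00014), or 2.92-fold, in 9 of 9 runs, and the lowest value at each time was that of x-ray 09C. Thrombospondin-1 (THBS1), a matrix protein that activates TGF-beta, ran from 11.28 to 12.66 at 4 h (median 12.06) and from 10.03 to 11.41 at 12 h (median 10.79). It fell by 1.34 (SD 0.53, adjusted p = 0.000211), or 2.52-fold, in 9 of 9 runs. PMEPA1, a TGF-beta target that dampens SMAD signalling, ran from 10.70 to 12.56 at 4 h (median 12.30) and from 9.87 to 12.08 at 12 h (median 11.38). It fell by 0.83 (SD 0.22, adjusted p = 0.00011), while its 2 other probes ranged from -0.76 to 0.04. The mean of PMEPA1 rose from 10.84 at 0 h to 12.06 at 4 h, and 4 h was its highest time in 8 of 9 runs. Among the 22 matrix and TGF-beta genes, fibronectin (FN1) also fell, by 0.30 (SD 0.31, adjusted p = 0.0432), with a second probe at -0.04. The protease urokinase (PLAU, 0.54 ± 0.40, adjusted p = 0.00716) and the basement membrane collagen COL4A1 (0.22 ± 0.19, 0.0339) rose. The laminin chain LAMB3, a basal cell marker, was lower on 1 probe (-0.41 ± 0.33, 0.0122) and between -0.05 and -0.03 on the others.

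Of 14 inflammatory genes, 3 were lower and none higher (median -0.04), against 6.32% and 7.03% of all genes. The chemokine CXCL2 ran from 8.06 to 11.56 at 4 h (median 10.10) and from 7.86 to 10.20 at 12 h (median 8.91). It fell by 0.98 (SD 0.93, adjusted p = 0.0204) in 8 of 9 runs and was 0.77 higher in x-ray 09C. CXCL1 fell by 0.53 (SD 0.44, adjusted p = 0.0135), and TNFAIP3, an inhibitor of NF-κB, fell by 0.52 (SD 0.32, adjusted p = 0.003). CXCL8 differed by -0.58 (adjusted p = 0.294) and IL1B by -0.12 (0.245). Of 14 immediate early genes, MYC fell as given above and ZFP36, which destabilizes inflammatory mRNAs, rose (0.46 ± 0.41, 0.0193), while FOS (0.53, 0.0639) and EGR1 (0.36, 0.0812) did not pass. The ERK phosphatases DUSP4 (-0.62 ± 0.61, 0.0265) and DUSP5 (-0.28 ± 0.25, 0.0304) and the ERK-induced PHLDA1 (-0.28 ± 0.26, 0.0349) were lower, and ERRFI1, an inhibitor of EGFR, was higher (0.55 ± 0.33, 0.00262). These 3 lower and 1 higher of the 16 EGFR and ERK genes became 2 and 4 without x-ray 09C, none and 1 without Si 09A, 1 and 2 without Fe 09C, and 2 and 1 without Fe 08C or x-ray 09A. They became 1 and 1 without x-ray 08C, Si 09B or Si 09C. The coagulation factor F3, listed among the YAP targets, fell by 0.50 (SD 0.31, adjusted p = 0.00324).

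Targets of p53, the factor that answers DNA damage, changed in both directions, with 3 of 23 higher and 3 lower, against 7.03% and 6.32% of all genes. The counts were 2 higher and 4 lower without x-ray 09C, 1 and 1 without Si 09A or Si 09C, 3 and 1 without Si 09B, and 1 and 2 in the authors' value table. CDKN1A (p21), the cyclin-dependent kinase inhibitor, ran from 12.51 to 13.17 at 4 h (median 12.82) and from 12.98 to 14.32 at 12 h (median 13.04). It rose by 0.42 ± 0.38 (adjusted p = 0.0208) in 7 of 9 runs, most in x-ray 09C (1.15), and by 0.33 without that run. Its second probe differed by 0.00. The repair factor XPC (0.48 ± 0.43, 0.0193) and RRM2B, a subunit of ribonucleotide reductase (0.33, 0.0437), rose. The exonuclease AEN fell by 0.55 (SD 0.27, adjusted p = 0.00102) in 9 of 9 runs, the mitochondrial protein SPATA18 fell by 0.26 (SD 0.21, 0.0231), and PHLDA3, an inhibitor of AKT, fell by 0.39 (0.0245). MDM2 (0.34, 0.28) and GDF15 (0.38, 0.138) did not pass the test.

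Interferon-stimulated genes were slightly higher, with 5 of 20 called and none lower (median 0.09), and their mean was the lowest of the 5 times at 4 h in 9 of 9 runs. The median level of the 20 was 6.90, not far above the filter at 6.23, and IFIT1 had means of 6.56 at 4 h and 6.98 at 12 h. Of all genes 7.03% were higher and 6.32% lower. The count of higher members was 5 in the authors' value table. None was called in a fit with all mock and reference samples, without the run as a block or after median scaling (6 at an unadjusted p under 0.05). The transcription factor IRF9 rose by 0.40 ± 0.21 (adjusted p = 0.00227), the antiviral protein IFIT1 by 0.42 ± 0.31 (0.009), the RNA sensor IFIH1 by 0.34 ± 0.27 (0.0152), IRF7 by 0.27 ± 0.20 (0.0161) and IFIT2 by 0.21 ± 0.16 (0.0295), while ISG15 and MX1 differed by 0.05 and 0.03 and did not pass. The second probe of IRF7, at 0.06, was not called. Of 31 hypoxia and glycolysis genes, 4 were higher and none lower, with a median of 0.07 that turned to -0.05 after median scaling. These were the enolase ENO2 (0.76 ± 0.49, 0.003), the MYC antagonist MXI1 (0.26 ± 0.18, 0.0133), the glycolytic enzyme PGAM1 (0.33 ± 0.29, 0.0229) and the glucose transporter SLC2A3 (0.40 ± 0.40, 0.0316). Without x-ray 09C 7 passed, and with Fe 08C, x-ray 08C, Si 09A or Si 09C left out 2 did. The hypoxia targets VEGFA, NDRG1 and PDK1 did not pass (0.11, 0.08 and 0.04). Of 20 NRF2 targets, OSGIN1 (-0.58 ± 0.46, 0.00954), the peroxiredoxin reductase SRXN1 (-0.43 ± 0.35, 0.0136) and the transporter ABCC3 (-0.57 ± 0.55, 0.0242, with a second probe at -0.03) were lower, and NQO1 differed by -0.06 and did not pass. In lipid synthesis the sterol enzymes SC5D (-0.38 ± 0.12, 0.00055, with a second probe at 0.01) and SQLE (-0.20 ± 0.16, 0.0389) and the acetyl-CoA synthetase ACSS2 (-0.46 ± 0.50, 0.0461) were lower. They were 2 of 19 cholesterol genes (median 0.00, 10 positive means) and 1 of 11 fatty acid genes (median 0.10, 6 positive means). No member of these lists was higher, and 6.32% of all genes were lower.

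Among the other genes with the smallest p, most had no place in the lists. TAF7, a subunit of the general factor TFIID, ran from 8.91 to 9.48 at 4 h (median 9.20) and from 9.26 to 10.01 at 12 h (median 9.75), and rose by 0.51 ± 0.12 (adjusted p = 0.000179). It rose in 9 of 9 runs by 0.35 to 0.71. SDCCAG8, a centrosomal protein, ran from 6.88 to 7.32 at 4 h (median 7.28) and from 7.49 to 7.86 at 12 h (median 7.66), with no overlap, and rose by 0.47 ± 0.13 (adjusted p = 0.000211). The scaffold DLG3 ran from 6.23 to 6.74 at 4 h (median 6.52) and from 6.88 to 7.10 at 12 h (median 7.07), also without overlap, and rose by 0.52 ± 0.16 (0.000211). For TAF7, SDCCAG8, DLG3 and ARHGAP24, 4 h was the lowest of the 5 times in 9 of 9 runs. ARHGAP24, which switches off the GTPase RAC1, rose by 0.66 ± 0.24 (0.000213) without overlap of the groups, but its 2 other probes differed by 0.09 to 0.12 and were not called. The Wnt receptor FZD2 rose by 0.69 ± 0.26 (0.000223) and the CTP synthase CTPS2 by 0.49 ± 0.17 (0.000373). The rest of the 12 were BBX, PPP2R3B, TNFAIP8L1, GOLPH3L and the phosphatase PTPN6, at 0.39 to 0.55, of which PPP2R3B and PTPN6 had a further probe at -0.01 and -0.08. Among the lower genes the zinc finger protein ZNF800 fell by 0.68 (SD 0.15, adjusted p = 0.00011), from 9.04 to 10.06 at 4 h (median 9.31) to between 8.20 and 9.31 at 12 h (median 8.73). The mitochondrial DNA helicase TWNK fell by 0.68 (SD 0.23), KLHL21, an adaptor that brings Aurora B to a ubiquitin ligase, fell by 0.68 (SD 0.23), GPN2 fell by 0.51 (SD 0.15) and ZBTB24 fell by 0.46 (SD 0.11), each with an adjusted p of 0.000211.

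**Figure D5:**
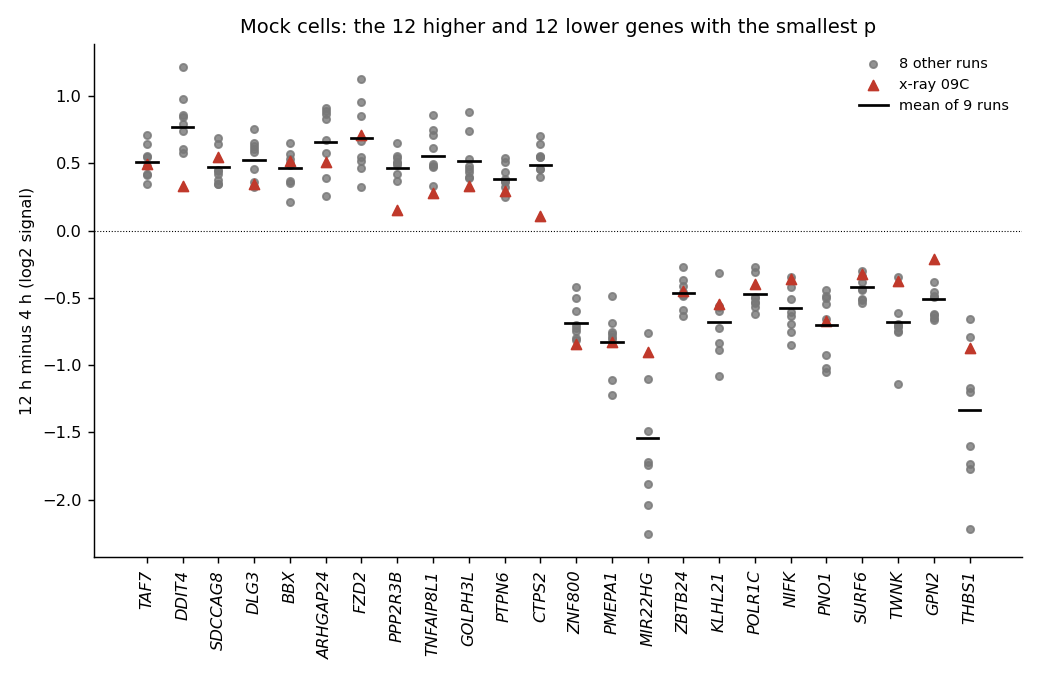
The 12 h minus 4 h difference in log2 signal of the 12 higher and 12 lower genes with the smallest p among those that changed the same way in 9 of 9 runs, which fixes that all points of a gene lie on 1 side of 0. Grey points are 8 runs, red triangles are x-ray 09C and bars are the means, from 0.39 (PTPN6) to 0.77 (DDIT4) above 0 and from -0.42 (SURF6) to -1.54 (MIR22HG) below it.

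The remaining lists had few or no called members. Among all genes, 7.03% were higher and 6.32% lower. None of 20 squamous differentiation genes, 7 metallothionein and zinc genes or 6 aryl hydrocarbon receptor targets passed the test, with medians of -0.11, -0.14 and -0.08. Of the squamous genes 17 of 20 means were negative, and the metallothionein median was negative in 9 of 9 runs. Without x-ray 09C 2 squamous genes, 1 metallothionein gene and 3 aryl hydrocarbon receptor targets were lower. Of 51 respiratory chain and ATP synthase genes 1 passed, ATP5MC1 at 0.21 ± 0.12 (adjusted p = 0.0149), and the list median was 0.06, which turned to -0.07 after median scaling. In the Notch pathway 3 of 17 were lower and 1 higher (4 and 1 without x-ray 09C, and no higher gene without x-ray 08C, Si 09A, x-ray 09A, Si 09B or Si 09C). The receptor NOTCH2 (-0.28 ± 0.14, 0.00406) and the glycosyltransferases MFNG (-0.31 ± 0.24, 0.0161) and LFNG (-0.53 ± 0.59, 0.05) were lower, and the target HEY1 was higher (0.33 ± 0.31, 0.0281). ID1, a target of BMP signals, rose by 0.42 ± 0.31 (0.00859), and the BMP pseudoreceptor BAMBI fell by 0.33 (SD 0.19, 0.00406). The second probe of ID1, at 0.17, was not called. The YAP pathway kinase LATS2 was lower (-0.36 ± 0.37, 0.043), and the linker protein DST was higher on both probes (0.43 ± 0.33, 0.0107, and 0.51).

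The 12 h minus 4 h differences were also compared between the radiation labels that the mock cells carry and between the chips. Between the Fe, Si and x-ray labels (3 runs each) no probe passed an F test in limma, with 1128 of 24350 probes at an unadjusted p under 0.05 and a smallest adjusted p of 0.892. Between the 5 runs with both times on 1 chip and the 4 runs with the times on different chips no probe passed either, with 815 at an unadjusted p under 0.05 and a smallest adjusted p of 0.996. The 5 runs include Fe 08A, of which 1 of 2 arrays at 12 h lies on another chip. A p that misses the threshold does not show that the runs behaved alike. In the 5 runs on 1 chip alone, 350 probes were higher and 350 lower, and DDIT4 (0.68), THBS1 (-1.27), PER2 (-1.24), CENPF (0.73) and HERPUD1 (1.18) passed there, whereas HMMR (0.67, adjusted p = 0.0516) and ASNS (-0.59, 0.262) did not. Runs that share a replicate code, such as 09C, are counted here as 1 campaign, a term taken from the paper. Between runs of 1 campaign the differences correlated with a median Spearman coefficient of 0.20 over 5 pairs, and between runs of different campaigns with 0.24 over 31 pairs, or 0.29 over 3 pairs against 0.25 over 25 without x-ray 09C.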

How the data were processed

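The authors extracted mean bead intensities per probe with BeadStudio and deposited them neither background-corrected nor normalized; these intensities were used. The authors also deposited log2 signals, which were background-subtracted (MBCB) and quantile-normalized, as an alternative used here. Intensities of all 134 arrays were corrected with normexp (offset 50), quantile-normalized, taken to log2 and averaged over technical replicates. Probes were tested if their mean over all 134 arrays, irradiated ones included, lay above the median of all probes (6.23), which left 24350 of 48701. That mean was taken before technical replicates were averaged. The 18 samples were fitted in limma (3.58.1, R 4.3.3) with the run as a block (8 residual and 5.65 prior degrees of freedom), with Benjamini-Hochberg adjustment over all tested probes and a threshold of 0.05. The run pairs samples through the labels and the correlation of deviations given above. P-values measure the spread between runs, some of which share a campaign. Errors are SDs of the 9 run differences.

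Of 48701 probes, 24303 have 1 gene symbol in the platform annotation, updated through RefSeq (GRCh38.p14), and 24398 have none here. For each gene the probe with the highest signal stands, and other probes of the named genes are given where they disagree. Named genes are the 12 higher and 12 lower with the smallest p among those changed the same way in every run, up to 4 called members of each list by p, CDKN1A and 8 clock genes. Further list members (such as CDK1, TXNIP, CXCL8, HSPA5 and MDM2) were named after their values were seen. The lists and the members of the comparison were chosen with earlier results of these data known. Simulated data with known changes were used to test the fit. Figures were drawn with matplotlib 3.10.9 in Python 3.11.15 (pandas 2.3.3), and files were read with the data.table package, version 1.17.8.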

Additional observations from a re-analysis of the deposited data

Results flagged for a closer look

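In 105 named genes, the difference of 1 run lay far from those of the other 8 by Dixon's test in 6 genes, 5 times in x-ray 09C and 1 time in Fe 09C; chance gives about 1 in 20. In x-ray 09C the 12 h minus 4 h difference was 1.36 for ZFP36 (other runs -0.12 to 0.61), -0.48 for SLC2A3 (0.22 to 0.93), -1.25 for F3 (-0.57 to -0.13), 0.96 for LFNG (-1.04 to -0.41) and 0.63 for DBP (-0.09 to 0.13). In Fe 09C it was 1.24 for DST (0.04 to 0.48).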

How the results depend on the processing

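Against 1181 probes higher and 1106 lower, arrays scaled to a common median gave 2 and 22, no replicate block 279 and 228, all mock and reference samples with the replicate block 723 and 705, the pairs on one chip 350 and 350, and a fold above 1.3 in addition 397 and 341. Leaving out 1 run at a time gave 688 to 1513 higher and 694 to 1481 lower probes; without Si 09A there were 717 and 694, without Si 09C 688 and 711, and without x-ray 09C 1513 and 1481. No called probe changed sign in any of 23 settings. Of the 100 named genes called, DDIT4, PMEPA1, MIR22HG, KLHL21, THBS1 and PER2 stayed called after median scaling, where the median SD of a probe's differences was 0.23, against 0.17 with quantile normalization. The cause of these shifts was not tested, and the one-chip pairs also hold fewer samples. Their own log2 values, as the authors deposited them, gave 800 and 777, and the means of the runs of a campaign 1093 and 1023. The comparisons of labels and of chips stayed at 0 probes in each setting run. The filter on detection p was not run, since detection values were not analysed here.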
